A study of Danio rerio with 6 samples.

Results

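The 200 genes described here form the abundant core of sorted zebrafish thrombocytes. They were chosen from 32520 genes in the count table by their level alone. For each gene the counts were divided by the library total and scaled to CPM, the usual per-library unit of read counts, the smallest of its 6 values was taken, and the 200 genes with the highest smallest value were kept after 13 mitochondrially encoded genes were set aside. The levels are therefore what chose the genes, and they are given as a description. A names table paired 199 of the 200 identifiers with a symbol. Symbols are written as that table writes them, and 120 of them carry no lower-case letter and lack the letter that tells zebrafish gene copies apart.

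The libraries came from 2 groups of larvae at 5 days after fertilization, with 3 libraries in each, numbered in the labels as biological replicates. In the miR-150 group, written itga2b:miR-150-tagRFP with itga2b:EGFP, larvae carried a transgene in which an itga2b promoter drove the microRNA miR-150 together with the red fluorescent protein tagRFP, and a second transgene in which the same promoter drove EGFP. In the control group, written itga2b:tagRFP with itga2b:EGFP, larvae carried the itga2b promoter driving tagRFP alone, beside the same EGFP transgene. Larvae of either group were kept in a pigment blocker, dissociated, and sorted for cells with red and green fluorescence, both driven by the itga2b promoter. The libraries also held reads of genes of other tissues, given below, so the purity of the sort is not known. How many larvae went into a library is not given in the sources used here. The identifier named mir150 had 0 counts in all 6 libraries, so the count table cannot check the microRNA itself.

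Thrombocytes are the nucleated blood cells that do the work of platelets in fish. Their surface integrin, made of the chains encoded by itga2b and the ITGB3 gene, binds fibrinogen once talin and kindlin bind its tail from inside, and the actin cytoskeleton then changes the shape of the cell and pulls on the clot. The most abundant messenger RNAs of most cells encode ribosomal proteins, elongation factors, actin and chaperones, and a core drawn by level alone holds these beside the genes of the cell type.

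Library totals ranged from 12972258 to 22150519 counts, and the smallest count of any core gene in any library was far above the 3 counts taken as the floor of detection. miR-150 replicate 3 stood apart in the levels of core genes, given below, and miR-150 replicates 2 and 3 in lens genes. A list of 60 lens genes, all crystallins by name, held 0.231%, 15.5% and 22.5% of the counts of miR-150 replicates 1, 2 and 3. It held 0.0436%, 0.226% and 0.0229% of those of control replicates 1, 2 and 3. Other lists of foreign tissues also differed between libraries, with 0.106% to 2.61% of counts for connective tissue in miR-150 libraries and 0.0571% to 2.25% in controls. Counts taken by such genes lower the CPM of every other gene in the same library. For the larger gene classes the median fold change is given with and without miR-150 replicate 3. These are bulk samples, in which fewer cells of a type and less RNA per cell cannot be told apart.

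The core took 34.7%, 35.6% and 28.9% of counts in miR-150 replicates 1, 2 and 3, against 48.0%, 37.2% and 33.8% in control replicates 1, 2 and 3. The exact Clopper-Pearson 95% interval of each share was within 0.0263 percentage points of it and covers counting error only. The mean share was 33.1% ± 3.62 in the miR-150 group and 39.7% ± 7.41 in controls (SD, n = 3 each), and the groups overlapped. The difference of -6.57 percentage points became -2.41 without control replicate 1, and -1.66 when genes of the tissue lists were removed from the totals. With those genes removed, the core took 35.7%, 42.0% and 37.7% of the remaining counts in miR-150 replicates 1, 2 and 3, against 48.1%, 38.2% and 34.2% in control replicates 1, 2 and 3. All these shares include the unnamed identifier ENSDARG00000080337, given below, at 57831 CPM in miR-150 replicate 3 and 7530 to 19839 CPM in the other libraries. Shares without it were not computed.

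**Figure D1:**
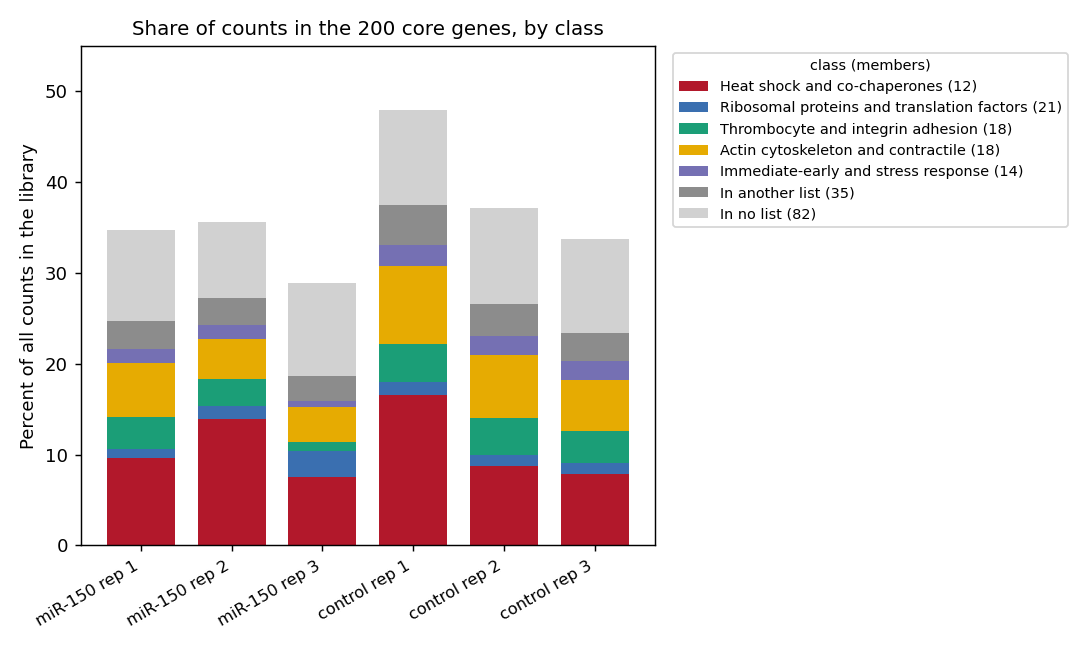
Stacked bars give the percent of all counts in each of the 6 libraries that fell in the 200 core genes, split into classes with the number of genes in each. The total is highest in control replicate 1, at 48.0%, and lowest in miR-150 replicate 3, at 28.9%.

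The entry level was 209 CPM. The last 3 genes inside were NME1, RASSF5 and cald1a, with smallest values of 212, 211 and 209 CPM, and the first 3 outside were si:ch211-214p13.9, SET and capza1b, with 209, 208 and 207 CPM. Because read counts grow with transcript length, the order by CPM is an order of reads, not of transcripts, and levels of different genes are not compared below.

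miR-150 replicate 3 set the smallest value for 122 of the 200 genes, and miR-150 replicates 1 and 2 for 36 and 26. Control replicates 1, 2 and 3 set it for 4, 1 and 11. The highest value lay in control replicate 1 for 92 genes and in miR-150 replicate 3 for 37. miR-150 replicate 3 was thus at one extreme or the other for 159 of the genes. With TMM scaling (trimmed mean of M-values, which balances library composition) it was lowest for 94 genes, and with the tissue lists taken out of the totals for 103.

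**Figure D2:**
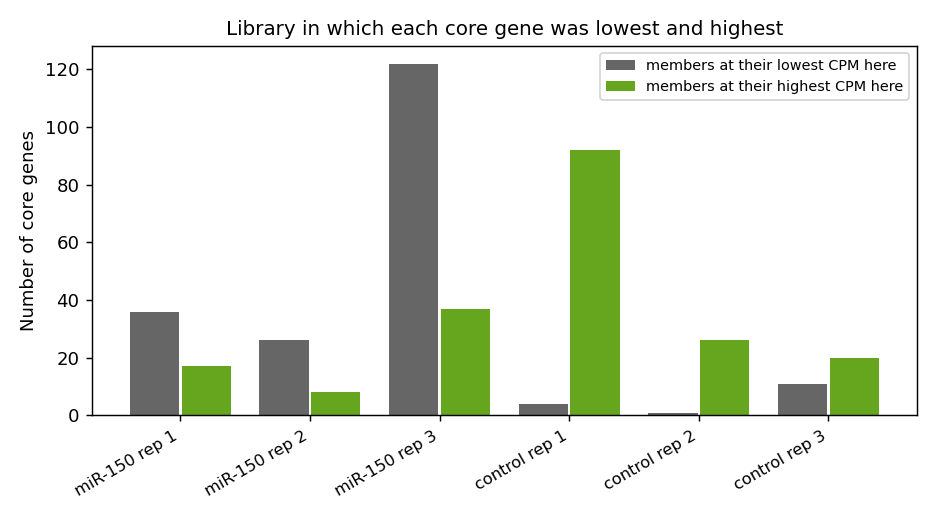
Bars give the number of the 200 core genes whose lowest (grey) and highest (green) CPM lay in each library. miR-150 replicate 3 held the lowest value of 122 genes, and control replicate 1 the highest value of 92.

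The first 4 genes by rank all encode heat shock proteins of the HSP70 family, chaperones that bind unfolded protein segments and are strongly induced by heat and other stress. Together the 4 took 6.14%, 7.89% and 5.77% of all counts in miR-150 replicates 1, 2 and 3, against 8.99%, 5.57% and 4.29% in control replicates 1, 2 and 3. hsp70l had 18827, 21558 and 18053 CPM in the miR-150 libraries and 23592, 17574 and 11182 CPM in controls. Its groups overlapped, and its fold change was 0.35 ± 0.81 on the log2 scale (estimate and SE, miR-150 over control; adjusted p = 0.994, edgeR quasi-likelihood test).

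The gene that the table names HSPA2 had 15173, 20537 and 13599 CPM in the miR-150 libraries, against 24522, 13658 and 11482 CPM in controls. hsp70.3 had 13490, 17602 and 12657 CPM in the miR-150 libraries, against 19245, 12053 and 10258 CPM in controls. hsp70.1 had 13900, 19230 and 13383 CPM in the miR-150 libraries, against 22558, 12451 and 9951 CPM in controls. All 4 genes were highest in control replicate 1 and lowest in control replicate 3. Each took a nearly fixed part of their joint reads, between 23.6% and 27.3% for HSPA2, 26.1% and 31.5% for hsp70l, 21.4% and 23.9% for hsp70.3, and 22.3% and 25.1% for hsp70.1. In the RefSeq gene order of the GRCz12tu assembly hsp70.1, hsp70.2 and hsp70.3 lie side by side, and hsp70l lies elsewhere. The family holds close copies whose reads the counting may have split, so the level of any one of them is uncertain.

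In all, 12 of the 84 genes in a list of heat shock proteins and co-chaperones, drawn up after the values were seen, were in the core. HSP90AA1, a chaperone of kinases and receptors, had 20077, 37692 and 8676 CPM in the miR-150 libraries and 49009, 14696 and 19186 CPM in controls. HSPA8, the constitutive HSP70, had 5193, 7980 and 4522 CPM in the miR-150 libraries and 9827, 6034 and 5802 CPM in controls. Its co-chaperone gene dnajb1b had 3107, 3105 and 1495 CPM in the miR-150 libraries and 3476, 3612 and 2261 CPM in controls. Control replicate 1 was highest for 10 of the 12, and miR-150 replicate 3 was lowest for 7. The 12 took 9.59%, 13.9% and 7.55% of counts in miR-150 replicates 1, 2 and 3, against 16.6%, 8.70% and 7.84% in control replicates 1, 2 and 3. The number of genes from this list in the core was 12 whichever library was left out, but not always of the same genes, as HSP90B1 entered without miR-150 replicate 3. Their median fold change was -0.09 on the log2 scale (miR-150 over control), 0.19 without miR-150 replicate 3 and 0.67 without control replicate 1.

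HSPA5, the chaperone of the endoplasmic reticulum, had 1297, 2449 and 761 CPM in the miR-150 libraries and 3271, 2596 and 2348 CPM in controls. A wider chaperone list, which shares genes with the heat shock list, had 9 of 34 genes in the core. ppiab, a cyclophilin that turns proline bonds, had 993, 1050 and 1603 CPM in the miR-150 libraries and 1790, 1255 and 1027 CPM in controls. CCT4 and CCT7, subunits of the ring-shaped chaperonin that folds actin and tubulin, were lowest in miR-150 replicate 1, at 310 and 238 CPM.

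**Figure D3:**
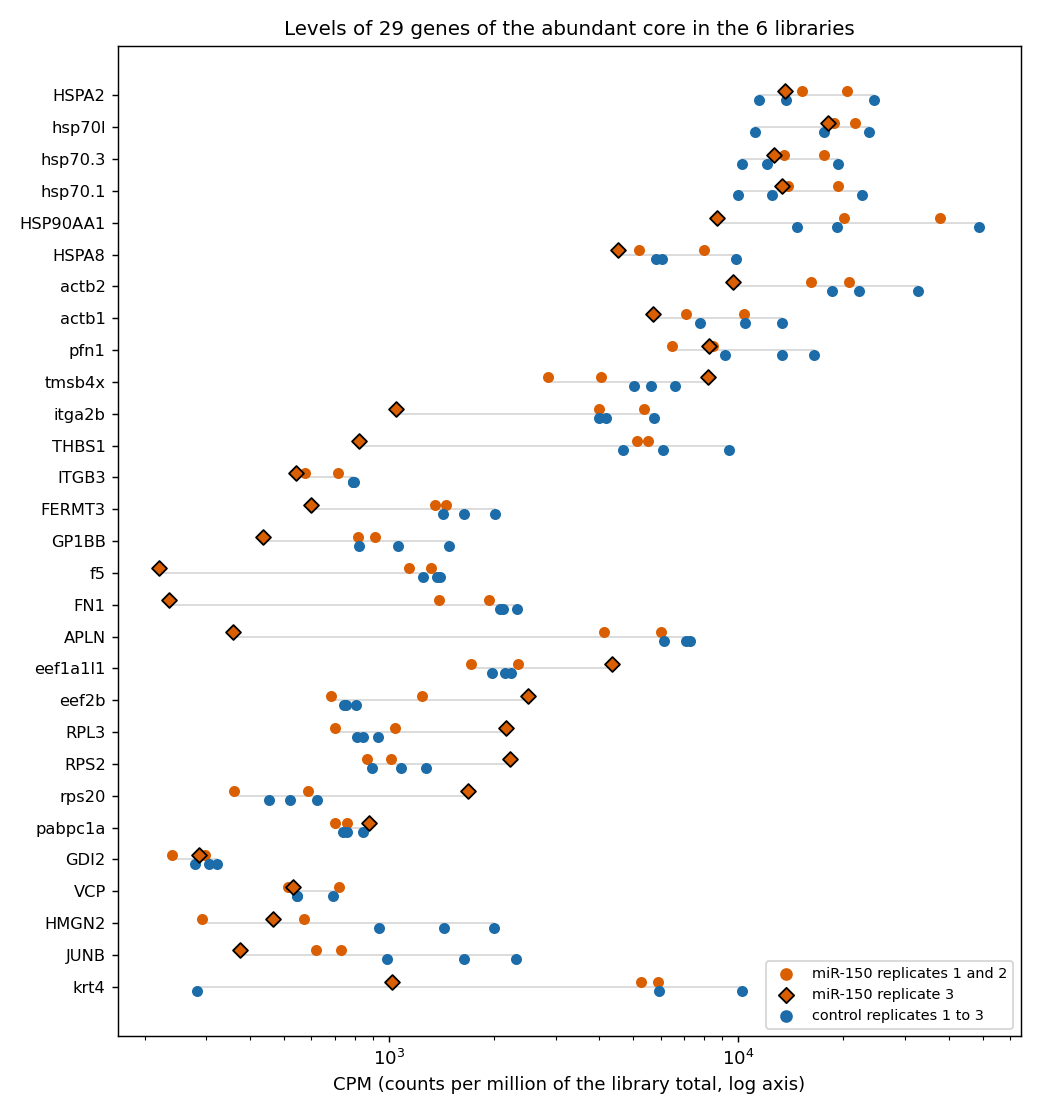
Each row is 1 core gene, with its CPM (log axis) in miR-150 libraries (orange, replicate 3 as a diamond) above its CPM in control libraries (blue). In itga2b, THBS1, f5, FN1 and APLN the diamond lies far left of the other 5 points, and in eef1a1l1, eef2b, RPL3, RPS2 and rps20 it lies to their right.

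The 18 genes of actin and contraction took 5.94%, 4.42% and 3.90% of counts in miR-150 replicates 1, 2 and 3, against 8.64%, 6.91% and 5.59% in control replicates 1, 2 and 3, the largest share after heat shock among the named classes in each library. Of 71 genes in an actin cytoskeleton list, 15 were in the core. actb2, which encodes a cytoplasmic beta-actin, had 20738, 16198 and 9667 CPM in the miR-150 libraries and 32589, 22142 and 18592 CPM in controls. actb1 had 10352, 7086 and 5696 CPM in the miR-150 libraries and 13319, 10476 and 7777 CPM in controls. Both were highest in control replicate 1 and lowest in miR-150 replicate 3, and the groups overlapped.

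pfn1, profilin, which feeds actin monomers to growing filaments, had 8464, 6473 and 8236 CPM in the miR-150 libraries and 16488, 13304 and 9158 CPM in controls. tmsb4x, thymosin beta, which holds monomers in reserve, had 4051, 2850 and 8182 CPM in the miR-150 libraries and 5645, 6592 and 5023 CPM in controls. It was the only one of the 15 with its highest value in miR-150 replicate 3. The other members included CFL1, which severs filaments, and ARPC1B and ARPC3 of the complex that branches them. ARPC1B had 2005, 1774 and 939 CPM in the miR-150 libraries and 3433, 2485 and 2104 CPM in controls. Of the 15, 0 had an adjusted p below 0.05, as did 0% of all genes tested (edgeR quasi-likelihood test). Their median fold change was -0.37 on the log2 scale (miR-150 over control). That median was -0.31 without miR-150 replicate 3 and -0.09 without control replicate 1, the highest library for 11 of the 15.

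Of 12 tubulins listed, 2 were in the core. The gene named tuba5, which the list did not hold, was also in the core. Its log2 fold change was -0.83 (miR-150 over control), and -0.45 without miR-150 replicate 3. tuba8l4 had 682, 802 and 838 CPM in the miR-150 libraries and 1531, 719 and 705 CPM in controls. tubb4b had 908, 995 and 633 CPM in the miR-150 libraries and 1456, 909 and 889 CPM in controls.

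Genes of the thrombocyte itself were well represented. Of 49 genes that matched a thrombocyte and platelet list, 9 were in the core, namely itga2b, THBS1, srgn, FERMT3, ITGB3, PLEK, GP1BB, FLI1 and f5. itga2b, whose promoter drove the sorting markers, had 5384, 4002 and 1052 CPM in the miR-150 libraries and 5727, 4194 and 4002 CPM in controls. ITGB3, its partner chain, had 714, 575 and 542 CPM in the miR-150 libraries and 790, 791 and 796 CPM in controls. In miR-150 replicate 3, log2 CPM minus the median of the other 5 libraries was -1.995 for itga2b and -0.54 for this ITGB3 gene. Another gene named ITGB3, outside the core, had 83.6, 39.3 and 10.1 CPM in the miR-150 libraries and 36.1, 114 and 63.7 CPM in controls. It too was lowest in miR-150 replicate 3, so the smaller drop holds for the core ITGB3 gene only.

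GP1BB, a chain of the receptor for von Willebrand factor, had 913, 815 and 438 CPM in the miR-150 libraries and 1490, 1063 and 820 CPM in controls. FERMT3, kindlin, which switches the integrin on, had 1454, 1357 and 599 CPM in the miR-150 libraries and 2015, 1646 and 1433 CPM in controls. THBS1, thrombospondin, a secreted adhesive protein, had 5527, 5145 and 821 CPM in the miR-150 libraries and 4676, 9432 and 6103 CPM in controls. These 3 genes were each lowest in miR-150 replicate 3.

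PLEK, pleckstrin, a major target of protein kinase C in platelets, had 1038, 892 and 481 CPM in the miR-150 libraries and 1460, 1185 and 1181 CPM in controls. srgn, the core protein of granule proteoglycans, had 1171, 1207 and 665 CPM in the miR-150 libraries and 2118, 1425 and 1038 CPM in controls. f5, coagulation factor V, had 1318, 1144 and 220 CPM in the miR-150 libraries and 1376, 1252 and 1402 CPM in controls. FLI1, a transcription factor of the lineage, had 726, 799 and 260 CPM in the miR-150 libraries and 1070, 1080 and 922 CPM in controls. All 9 were lowest in miR-150 replicate 3. Their median fold change was -0.44 on the log2 scale, -0.17 without that library and -0.13 without control replicate 1. Of the 9, 0 had an adjusted p below 0.05, as did 0% of all genes tested (edgeR quasi-likelihood test).

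Well-known thrombocyte genes also lay below the entry level of the core. mpl, the thrombopoietin receptor, had 915, 725 and 155 CPM in the miR-150 libraries and 837, 772 and 716 CPM in controls, so miR-150 replicate 3 alone kept it out. NFE2, a transcription factor of platelet formation, had 446, 487 and 145 CPM in the miR-150 libraries and 665, 445 and 493 CPM in controls. gp9, another chain of the receptor for von Willebrand factor, had 83.3, 102 and 76.1 CPM in the miR-150 libraries and 163, 135 and 111 CPM in controls. The identifier named P2RY12, the ADP receptor that the title of the study names, had 0 counts in each library. A count of 0 allows up to 3 counts, or 0.135 to 0.231 CPM depending on the library.

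A second list, of integrin adhesion genes, was drawn up after the values were seen. Of its 40 genes, 13 were in the core, and all 13 were lowest in miR-150 replicate 3. TLN1, talin, which links the integrin tail to actin, had 3937, 3161 and 1367 CPM in the miR-150 libraries and 4053, 3809 and 3953 CPM in controls. ILK, a scaffold at integrin tails, had 1453, 1079 and 324 CPM in the miR-150 libraries and 1623, 1606 and 1383 CPM in controls. rap1b, the small GTPase upstream of talin, had 690, 479 and 438 CPM in the miR-150 libraries and 901, 703 and 568 CPM in controls.

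FN1, fibronectin, an adhesive matrix protein, had 1938, 1395 and 234 CPM in the miR-150 libraries and 2119, 2334 and 2083 CPM in controls. The groups did not overlap, with every control above every miR-150 library. On CPM the groups did not overlap, in either direction, in 49 core genes, FGL2 among them, and in 14.6% of all genes tested. On TMM-scaled values this held for 17 core genes, FN1 among them, and for 13.6% of all genes tested. This FN1 gene had a fold change of -0.74 ± 0.70 on the log2 scale (adjusted p = 0.988, edgeR quasi-likelihood test), and -0.27 ± 0.34 without miR-150 replicate 3. Another gene named FN1, outside the core, had 117, 6.68 and 32.5 CPM in the miR-150 libraries and 0, 18.6 and 34.5 CPM in controls. Its log2 fold change was 1.73 ± 1.67. FGL2, a fibrinogen-like protein, had 4284, 4599 and 1023 CPM in the miR-150 libraries and 7487, 5988 and 5239 CPM in controls. LPP, a protein of focal adhesions, had 1806, 1159 and 308 CPM in the miR-150 libraries and 1682, 1458 and 1587 CPM in controls. The 13 adhesion genes had a median fold change of -0.41 on the log2 scale. It was -0.15 without miR-150 replicate 3 and -0.17 without control replicate 1.

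Contractile genes known from smooth muscle were present as well, again from a list made after the values were seen. Of its 23 genes 8 were in the core, and of these tpm4a, MYL9 and tpm3 were also counted in the actin list. MYH11, a myosin heavy chain, had 3115, 2166 and 484 CPM in the miR-150 libraries and 2498, 2830 and 3204 CPM in controls. MYL9, its regulatory light chain, had 2062, 1339 and 492 CPM in the miR-150 libraries and 2167, 1770 and 1547 CPM in controls. MYLK, the kinase that activates that light chain, had 609, 441 and 233 CPM in the miR-150 libraries and 466, 573 and 597 CPM in controls. cald1a, caldesmon, which binds actin and slows myosin, differed from the other 7 and was highest in miR-150 replicate 3, with 279, 209 and 506 CPM in the miR-150 libraries and 281, 313 and 303 CPM in controls. The median fold change of the 8 was -0.38 on the log2 scale, -0.14 without miR-150 replicate 3 and -0.18 without control replicate 1.

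Most genes of protein synthesis were high in miR-150 replicate 3, the library in which the thrombocyte genes were low. Of 83 genes that matched a ribosomal protein list, 13 were in the core, 10 of the large subunit and 3 of the small. RPSA2 and RPS4Y2, whose symbols the list did not match, were also in the core and are not among the 13. Their log2 fold changes were 0.82 and 0.58 (miR-150 over control), and 0.09 and -0.05 without miR-150 replicate 3. All 13 were highest in miR-150 replicate 3 and lowest in miR-150 replicate 1. RPL3 had 703, 1042 and 2170 CPM in the miR-150 libraries and 929, 844 and 810 CPM in controls. RPS2 had 864, 1014 and 2226 CPM in the miR-150 libraries and 1279, 1081 and 896 CPM in controls. rps20 had 361, 588 and 1680 CPM in the miR-150 libraries and 624, 454 and 521 CPM in controls. The control values of these genes thus lay between those of miR-150 replicates 1 and 3.

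Of the translation factors, 8 of 45 listed genes were in the core, with 6 of them highest in miR-150 replicate 3. eef1a1l1, which brings transfer RNA to the ribosome, had 1721, 2338 and 4365 CPM in the miR-150 libraries and 2231, 1974 and 2144 CPM in controls. eef2b, which moves the ribosome along the message, had 682, 1241 and 2505 CPM in the miR-150 libraries and 806, 743 and 756 CPM in controls. pabpc1a, the poly(A)-binding protein, was even across libraries instead, with 701, 762 and 876 CPM in the miR-150 libraries and 761, 742 and 844 CPM in controls. EIF4G2, a scaffold of initiation, was lowest in miR-150 replicate 3, at 219 CPM. The 8 had a median fold change of 0.47 on the log2 scale, and 0.10 without miR-150 replicate 3.

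Of the 13 listed ribosomal genes, 0 had an adjusted p below 0.05, as did 0% of all genes tested (edgeR quasi-likelihood test). Their median fold change was 0.89 on the log2 scale (miR-150 over control). Without miR-150 replicate 3 the median was 0.03. Over all 81 listed ribosomal protein genes tested, members and others, the medians with and without that library were 1.00 and 0.03. The number of listed ribosomal genes in the core depended on the same library. It was 4 when miR-150 replicate 3 was left out of the ranking, and 8 when TMM-scaled values were ranked. Relative to the median of the other 5 libraries, the 13 lay a median of 1.37 log2 units higher in miR-150 replicate 3, and 1.86 units higher on TMM-scaled values.

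**Figure D4:**
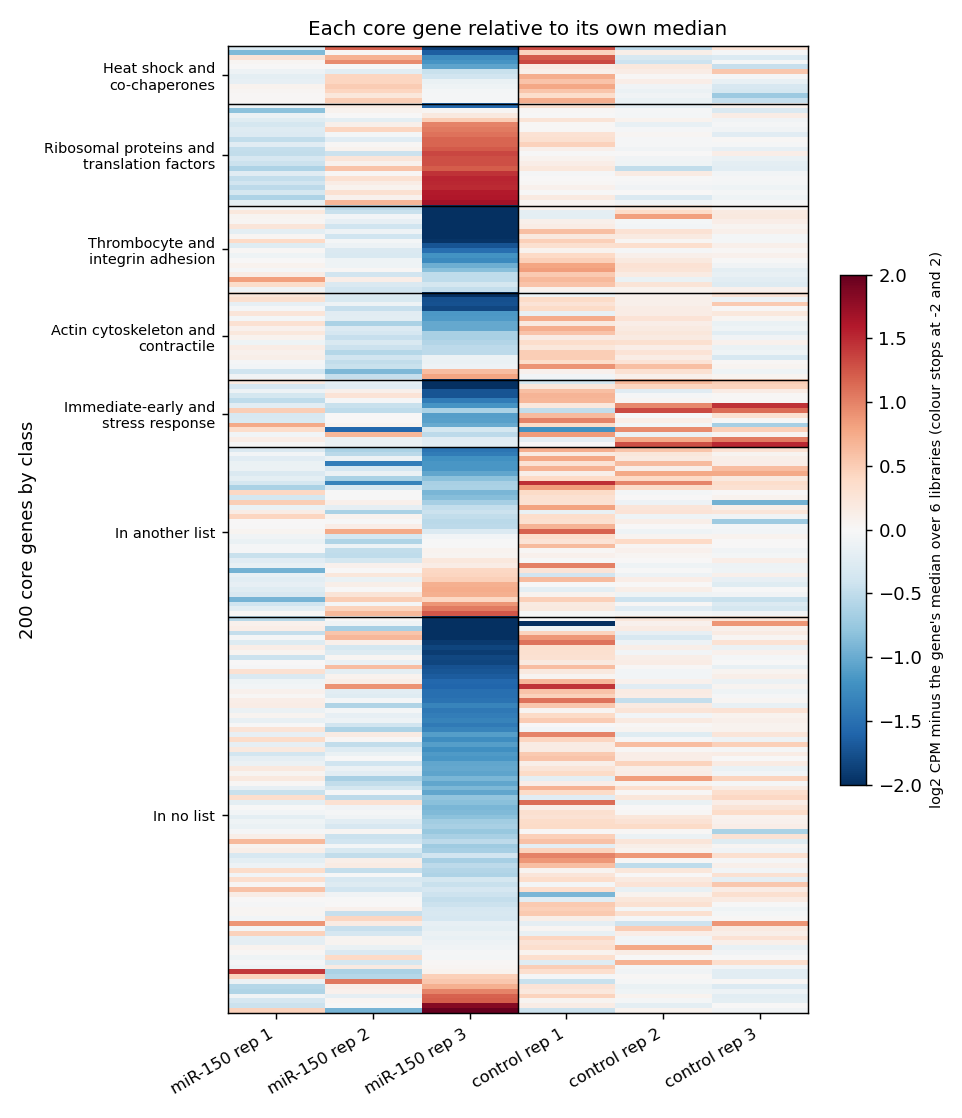
Rows are the 200 core genes grouped by class, columns are the 6 libraries, and colour gives log2 CPM minus the median of the gene over the libraries. In the third column, miR-150 replicate 3, the ribosomal and translation class is mostly red (median difference from the other 5 libraries 1.35) and the thrombocyte and adhesion class blue (median -1.68).

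Immediate-early genes and genes of the stress response formed another class. Of 43 genes in a list made after the values were seen, 14 were in the core, and 13 of them were lowest in miR-150 replicate 3. FOS, a subunit of the AP-1 transcription factor, had 887, 443 and 404 CPM in the miR-150 libraries and 445, 1571 and 1367 CPM in controls. JUN, its usual partner, had 1127, 297 and 692 CPM in the miR-150 libraries and 383, 1697 and 1224 CPM in controls. In both, control replicates 2 and 3 were highest and control replicate 1 lay among the miR-150 libraries. JUNB, a related subunit, had 731, 620 and 374 CPM in the miR-150 libraries and 985, 1643 and 2316 CPM in controls. Its groups did not overlap, as was so for 14.6% of all genes tested on CPM and 13.6% on TMM-scaled values. Another gene named JUNB, outside the core, had 199, 148 and 162 CPM in the miR-150 libraries and 187, 264 and 433 CPM in controls. Its log2 fold change was -0.54 ± 0.37 (miR-150 over control).

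mcl1a, which protects against apoptosis, had 2396, 2974 and 1394 CPM in the miR-150 libraries and 5891, 3242 and 2933 CPM in controls. DUSP6, a phosphatase that shuts off ERK, had 267, 248 and 232 CPM in the miR-150 libraries and 271, 657 and 767 CPM in controls. SIK1, a salt-inducible kinase, had 1701, 1312 and 222 CPM in the miR-150 libraries and 1175, 2333 and 2104 CPM in controls. The 14 had a median fold change of -0.58 on the log2 scale, and -0.40 without miR-150 replicate 3. Of the 14, 1 had a log2 fold change above 0, NR4A1, at 0.26. Without miR-150 replicate 3 there were 2 above 0, NR4A1 at 0.56 and CCNG1 at 0.17.

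Of 36 chromatin proteins listed, 5 were in the core, and on the CPM given here every miR-150 library lay below every control in all 5. On TMM-scaled values this held for 4 of them, with ptmaa the exception, against 5.95% of all genes tested that were lower without overlap and 13.6% without overlap in either direction. The core's rule used these levels, so nothing is read from the count. HMGN2, which binds nucleosomes and loosens chromatin, had 571, 292 and 465 CPM in the miR-150 libraries and 2003, 1439 and 936 CPM in controls. hmga1a, which binds AT-rich DNA, had 603, 254 and 295 CPM in the miR-150 libraries and 809, 1021 and 725 CPM in controls. ptmab, a prothymosin that binds histone H1, had 530, 391 and 345 CPM in the miR-150 libraries and 805, 803 and 699 CPM in controls. H3-3B, the replacement histone H3.3, had 918, 651 and 359 CPM in the miR-150 libraries and 1079, 1115 and 982 CPM in controls. The fifth, ptmaa, had 899, 647 and 971 CPM in the miR-150 libraries and 1181, 1292 and 991 CPM in controls. The median fold change of the 5 was -0.68 on the log2 scale and -0.63 without miR-150 replicate 3. Over the 35 listed chromatin genes tested, members and others, the median was -0.15. histh1l1, a histone gene by name that the list did not hold, was also in the core and went the other way. Its log2 fold change was 0.47 (miR-150 over control), and 0.16 without miR-150 replicate 3.

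Of 56 RNA-binding proteins listed, 9 were in the core. YBX1, which packages messenger RNA, had 709, 849 and 1404 CPM in the miR-150 libraries and 735, 910 and 837 CPM in controls. DDX5, an RNA helicase, had 1301, 1644 and 921 CPM in the miR-150 libraries and 2036, 1665 and 1740 CPM in controls. hnrnpa0l had 711, 680 and 552 CPM in the miR-150 libraries and 1340, 908 and 832 CPM in controls.

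Energy metabolism entered with few nuclear-encoded genes, and the rule had set aside the 13 mitochondrially encoded genes. Of 98 nuclear-encoded respiratory chain genes, 2 were in the core, the ATP synthase subunits ATP5F1B and ATP5F1A. ATP5F1B had 578, 897 and 1354 CPM in the miR-150 libraries and 758, 564 and 520 CPM in controls. SLC25A5, which exchanges ADP for ATP across the mitochondrial membrane, had 2039, 1704 and 2058 CPM in the miR-150 libraries and 2732, 2229 and 2239 CPM in controls. Of 31 listed glycolysis genes 3 were members, led by GAPDHS, a glyceraldehyde phosphate dehydrogenase. GAPDHS had 2957, 3182 and 1497 CPM in the miR-150 libraries and 5916, 3923 and 3775 CPM in controls. PGK2, named below among the steadiest genes, was in the core but not on that list.

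Ubiquitin genes made up all 3 members of the 59 ubiquitin and proteasome genes. UBB had 3097, 3060 and 2129 CPM in the miR-150 libraries and 3839, 3332 and 1871 CPM in controls. The gene written ubb had 4696, 3561 and 2110 CPM in the miR-150 libraries and 4089, 3108 and 1734 CPM in controls. fthl27, a ferritin that stores iron, had 684, 650 and 690 CPM in the miR-150 libraries and 1078, 712 and 697 CPM in controls. Of 16 redox enzymes PRDX1 and TXN were members. PRDX1, a peroxiredoxin, had 363, 452 and 360 CPM in the miR-150 libraries and 1005, 720 and 695 CPM in controls. The groups did not overlap, as was so for 14.6% of all genes tested on CPM and 13.6% on TMM-scaled values.

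Beside these, 2 of the first 10 ranks went to genes in no list. malat1, a long noncoding RNA of nuclear speckles, had 10928, 8658 and 11262 CPM in the miR-150 libraries and 9378, 17907 and 13992 CPM in controls. The identifier ENSDARG00000080337, the only core gene without a name, had 19839, 7530 and 57831 CPM in the miR-150 libraries and 10695, 15068 and 13659 CPM in controls. It moved with the mitochondrially encoded genes, which made up 2.39%, 0.986% and 3.89% of all reads counted for miR-150 replicates 1, 2 and 3, against 1.41%, 1.79% and 1.97% for control replicates 1, 2 and 3. The ratio of its reads to theirs was 0.830, 0.763 and 1.49 in miR-150 replicates 1, 2 and 3, against 0.758, 0.842 and 0.693 in control replicates 1, 2 and 3.

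Listed markers of other cell types were rare among the 200. The rule keeps out a gene that is low in any library, so this rarity is no measure of how pure the sort was. krt4, a keratin of the fish epidermis, was the only member of 19 epidermal genes, with 5889, 5260 and 1018 CPM in the miR-150 libraries and 282, 5922 and 10221 CPM in controls. The 19 genes together took 1.43%, 0.766% and 0.471% of counts in miR-150 replicates 1, 2 and 3, against 0.0882%, 1.47% and 2.30% in control replicates 1, 2 and 3. actc1b, an alpha-actin, was the only member of 26 listed skeletal muscle genes. It had 1194, 720 and 576 CPM in the miR-150 libraries and 571, 485 and 1193 CPM in controls. TNNI1, a troponin gene that the list did not hold, was also in the core, with a log2 fold change of -0.95 (miR-150 over control). No lens, pancreas, liver, neutrophil and macrophage, neural, connective tissue or endothelial gene of the lists was a member. The part of these foreign RNAs in the results on other genes was not tested.

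From 26 red cell genes, blvrb and RHAG were members. blvrb, biliverdin reductase, had 703, 553 and 313 CPM in the miR-150 libraries and 1425, 1265 and 1048 CPM in controls. RHAG, an ammonium channel of the Rh family, had 546, 473 and 265 CPM in the miR-150 libraries and 969, 649 and 910 CPM in controls. Both were lower in every miR-150 library than in every control, also on TMM-scaled values, where 5.95% of all genes tested were lower without overlap. The other 24 genes of that list, globins among them, summed to 161, 161 and 435 CPM in the miR-150 libraries and 209, 210 and 276 CPM in controls, and 3 of them, the globins hbbe3, hbaa1 and hbaa2, had 0 counts in all 6 libraries. Of those with a count, 6 were highest in miR-150 replicate 3, such as hbae3, and 4 in control replicate 1, such as hbae1.2. Their part in the levels of blvrb and RHAG was not tested.

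The core varied less across libraries than other genes, as its rule favours. The SD of log2 CPM over the 6 libraries had a median of 0.54 among the 200, against 0.84 among 10707 other tested genes with a count in every library. Without miR-150 replicate 3 the median among the 200 was 0.32. The highest value was under 2 times the lowest in 45 genes and under 5 times in 171. The 5 steadiest were pabpc1a, GDI2, PGK2, VCP and SYNCRIP. GDI2, which recycles Rab GTPases, had 298, 239 and 287 CPM in the miR-150 libraries and 305, 322 and 278 CPM in controls. VCP, a segregase of ubiquitinated proteins, had 516, 722 and 532 CPM in the miR-150 libraries and 691, 547 and 546 CPM in controls.

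The 5 with the widest spread were krt4, APLN, FN1, SIK1 and THBS1. APLN, which encodes the peptide hormone apelin, had 4142, 6002 and 357 CPM in the miR-150 libraries and 6115, 7109 and 7273 CPM in controls. In miR-150 replicate 3, log2 CPM minus the median of the other 5 libraries was -4.10 in APLN, -3.15 in FN1 and -2.94 in SIK1. krt4 was the exception, as control replicate 1 held its lowest value.

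The genes oaz1b, PLEK, tpte, si:ch211-222l21.1 and ARPC1B followed the median profile of the core most closely. Their Pearson correlations with that profile over the 6 libraries were 0.99, 0.99, 0.99, 0.98 and 0.98, given as a description, since each gene is part of the profile and 1 library sets most of its range. oaz1b, an antizyme that limits polyamine synthesis, had 849, 877 and 374 CPM in the miR-150 libraries and 1341, 1072 and 1013 CPM in controls.

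The genotype comparison was fitted to all 15722 genes that passed the filter on low counts, which all 200 core genes did. No core gene was called: 0 of 200 had an adjusted p below 0.05, as did 0% of all genes tested (edgeR quasi-likelihood test, Benjamini-Hochberg). The smallest adjusted p in the core was 0.807. The DESeq2 Wald test, which called 1.68% of the genes to which it gave an adjusted p, also called 0 core genes. At an unadjusted p below 0.05 there were 4 core genes, or 2%, against 5.44% of all genes. All 4 were lower in the miR-150 group, the direction of 0.827% of all genes, while 0 were higher, the direction of 4.61% of all genes. A gene low in either group could not enter the core, so these shares are not a measure of how the genotype acted on it.

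HMGN2 had the smallest p, with means of 443 ± 141 CPM in the miR-150 group and 1460 ± 534 CPM in controls (SD, n = 3 each; log2 fold change -1.57 ± 0.53, adjusted p = 0.807, edgeR). JUNB followed, with 575 ± 182 CPM in the miR-150 group and 1648 ± 665 CPM in controls (SD, n = 3 each; log2 fold change -1.28 ± 0.46, adjusted p = 0.834, edgeR). blvrb had a log2 fold change of -1.09 ± 0.45 and hmga1a one of -0.998 ± 0.42, with adjusted p-values of 0.914 and 0.918 in edgeR. Over all alternative fits HMGN2 ranged from -1.93 to -1.11 on the log2 scale, with adjusted p-values of 0.0994 to 1.00. JUNB ranged from -1.52 to -1.075, and its smallest adjusted p was 0.0698, in the DESeq2 Wald test.

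Among genes higher in the miR-150 group the smallest p-values belonged to SPTAN1, SERBP1 and eef2b. SPTAN1, a spectrin of the membrane skeleton, had 381, 854 and 598 CPM in the miR-150 libraries and 303, 407 and 419 CPM in controls (log2 fold change 1.00 ± 0.49, adjusted p = 0.969, edgeR). SERBP1, a ribosome-binding protein, had 439, 684 and 1031 CPM in the miR-150 libraries and 434, 423 and 420 CPM in controls (log2 fold change 1.05 ± 0.52, adjusted p = 0.981, edgeR). eef2b, given above, had a log2 fold change of 1.25 ± 0.65 (adjusted p = 0.988, edgeR). Without miR-150 replicate 3 the log2 fold change was 0.53 for eef2b and 0.59 for SERBP1, and without miR-150 replicate 2 it was 0.63 for SPTAN1.

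**Figure D5:**
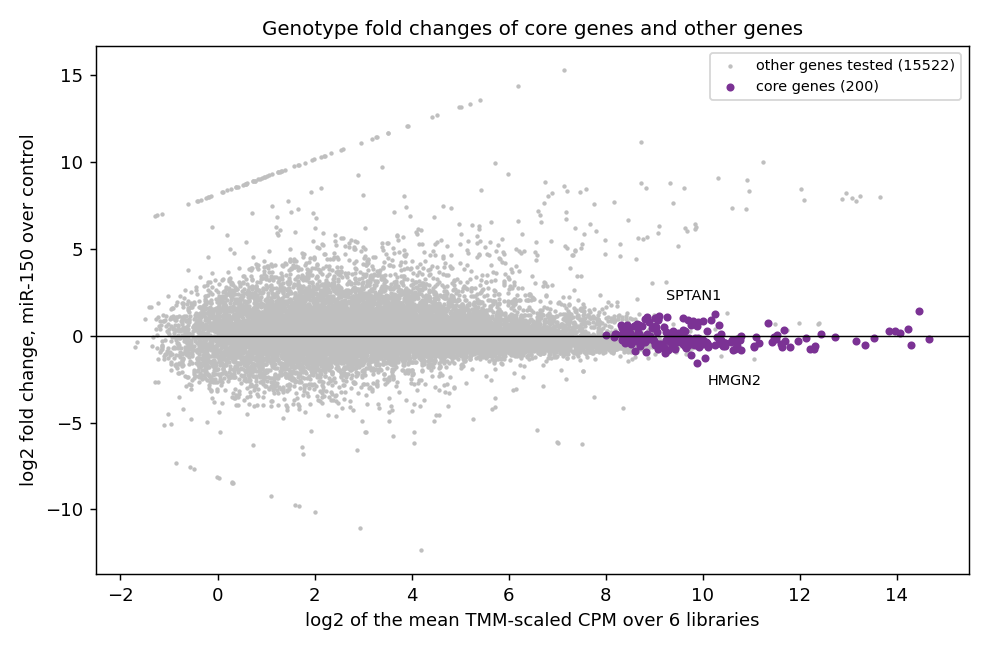
Each point is 1 of the 15722 genes tested, with the log2 of its mean TMM-scaled CPM on the x axis and its log2 fold change, miR-150 over control, on the y axis. The 200 core genes (purple) lie between -1.57 and 1.43, and 0 of them passed the test.

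The groups did not overlap in 17 core genes on TMM-scaled values, or 8.5%, against 13.6% of all genes tested. All 17 were lower in the miR-150 group (5.95% of all genes were lower without overlap, and 7.64% higher). They were HMGN2, hmga1a, ptmab, H3-3B, JUNB, pim2, blvrb, RHAG, PRDX1, CANX, FN1, rpz5, gnb1b, TNNI1, MEIS1, CTNNB1 and 1 of 2 genes named HNRNPAB. Of these 17, MEIS1 and CANX are given as examples chosen after their values were seen. MEIS1, a homeodomain factor of blood progenitors, had 487, 387 and 253 CPM in the miR-150 libraries and 608, 838 and 753 CPM in controls. CANX, the lectin chaperone calnexin, had 522, 586 and 311 CPM in the miR-150 libraries and 693, 1082 and 1072 CPM in controls.

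The count followed the scaling. On CPM with no TMM factor the groups did not overlap in 49 core genes, 48 lower and 1 higher, against 14.6% of all genes tested. Over the 200 genes the median log2 fold change was -0.22, against 0.04 over all genes tested. It was -0.11 without miR-150 replicate 3 and 0.03 without control replicate 1, so its direction rested on control replicate 1. With no scaling beyond totals the median of all genes shifted by -0.20 and that of the core was -0.41.

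With miR-150 replicate 3 left out of the ranking, 136 of the 200 genes stayed. The 64 that entered included mpl, NFE2, BTK, F2R, actn4, VCL and 2 genes named MYH9, chosen here after their values were seen. actn4, an actinin that cross-links filaments, entered at rank 50, with 1468, 1109 and 199 CPM in the miR-150 libraries and 1570, 1563 and 1465 CPM in controls. Thrombocyte-list genes in the core then numbered 13 rather than 9. With any other library left out, 191 to 199 of the 200 stayed.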

How the data were processed

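The deposited table holds raw read counts per Ensembl gene, 1 column per library, for 6 libraries, and all columns were used. Per the labels' protocols, RNA was isolated with a miRNeasy kit, cDNA was made with a SMARTer ultra-low-input kit and libraries with Nextera XT. STAR 2.7.10b, HTSeq 0.11.3, edgeR 1.34.1 and the build GRCz11 are named in the submitters' processing notes, with no role given. The annotation release, strand setting and handling of PCR duplicates are not given in the sources used here, so intervals and floors cover counting error only. Nothing in the labels says whether same-numbered libraries of the groups share a clutch or day.

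CPM is the count divided by the column total. Genotype was tested with edgeR 4.0.16 in R 4.3.3 (filterByExpr, TMM, glmQLFit, glmQLFTest, Benjamini-Hochberg over 15722 genes), with DESeq2 1.42.0 as an alternative. The script was tested on simulated counts with 8-fold changes. Their spread was smaller than the biological coefficient of variation of 1.03 fitted to these data. That test therefore does not show which changes could be called here. SEs are the absolute log2 fold change over the square root of F. Names came from a table that pairs 29201 of the 32520 identifiers with a symbol. Lists were matched by symbol, also without the copy letter where the table writes a shared upper-case name. Genes under other symbols, such as RPSA2, RPS4Y2, PGK2, tuba5, TNNI1 and histh1l1, were not matched, so each list count covers matched genes only. No p was adjusted over a list alone, and no set test was run. Named genes are the 10 highest ranks, the first 3 of each list, all thrombocyte-list members, the 3 on each side of the entry level, the 5 steadiest and 5 most variable, the 3 with the smallest p in each direction, members of tissue lists, and the 5 closest to the median profile. Other genes given with values were chosen after their values were seen. The core genes and lists were chosen with earlier results of these data known, and 4 lists were drawn up after the values were seen (heat shock, immediate-early, integrin adhesion, smooth-muscle-type contractile).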

Additional observations from a re-analysis of the deposited data

How the results depend on the processing

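Genotype calls in the core were 0 in edgeR with upper-quartile scaling, with DESeq2 size factors, with totals only, with the filter dropped, with the replicate block and with each library left out, and 0 in the DESeq2 Wald test, where calls among all genes were 254 instead of 0. With the replicate block, calls were 0 among all genes and 0 in the core. Libraries that share a number deviated from their group mean with correlations of -0.19, -0.10 and -0.04, so the numbers were not taken to pair the libraries. The 17 core genes whose groups did not overlap became 49 on CPM without TMM and 22 with DESeq2 size factors. Among all genes tested, 13.6% did not overlap with TMM, 14.6% on CPM without TMM and 14% with DESeq2 size factors. The 13 listed ribosomal genes in the core became 8 when TMM-scaled CPM was ranked and 5 when median CPM was ranked. They numbered 5 among the top 100 and 32 among the top 400. With 1 library left out they ranged from 4 (without miR-150 replicate 3) to 18. Genes shared with the core ranged from 136 to 199 with 1 library left out, and were 141 when median CPM was ranked. The median SD of log2 CPM ranged from 0.32 to 0.59, and the difference in core share from -9.50 to -2.41 percentage points. With 3 libraries a group, the fitted spread limits what could be called: the median SE of a log2 fold change in the core was 0.51.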
